A study of Danio rerio with 6 samples.

Results

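Retinol-binding protein 4 (rbp4), transferrin-a (tfa) and selenoprotein P (selenop) are secreted into the blood plasma, where they carry retinol, iron and selenium. Their transcripts were measured in trunk and tail muscle of zebrafish. The genes were taken as every probe set whose platform annotation gave 1 symbol and whose symbol was rbp4, tfa or selenop. This rule found 3 probe sets, 1 per gene, among 15502 probe sets that were not manufacturer's controls. The table names 8793 distinct genes in this way. None of the 3 probe sets bears the suffix by which the manufacturer marks a probe set shared between transcripts. All 3 passed the filter on dim probe sets, as did 9301 probe sets in all.

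The mutant larvae were of the runzel line, whose mutation the series title places in titin, the giant elastic protein of the muscle sarcomere. They were set against wildtype siblings, and the labels used here do not say whether these siblings carry the allele, nor do they name the allele or the strain. Both groups were 3 to 3.5 days old after fertilization, when the phenotype becomes visible. Each group had 3 Affymetrix Zebrafish Genome Arrays, and each array was made from muscle pooled over larvae after head, heart and gut had been cut away. The series text speaks of mutants and siblings of shared clutches. Arrays of the same replicate number are called a pair here because their deviations from the group means correlated at 0.389 to 0.551, not because a label ties the number to a clutch.

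The liver makes most of the plasma's carrier proteins in vertebrates, and in fish embryos the yolk syncytial layer also makes several of them. Rbp4 binds retinol and hands it to cells through the membrane receptor Stra6, so that the cells can make retinoic acid. Transferrin binds ferric iron and is taken up with its receptor, most of all by developing red cells. Selenoprotein P carries selenium as selenocysteine residues within its own chain, and cells that take it up reuse the selenium for their selenoproteins.

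Signal of the 3 carriers was lower in runzel than in wildtype siblings in every pair. In the fit that compared arrays within pairs, rbp4 fell to 76.5% and tfa to 69.5% of the wildtype signal, as geometric means over 3 pairs. The selenop signal stood at 81.3% of wildtype and did not pass. That fit called 0.473% of all tested probe sets as lower. Without the pairing none of the 3 passed. Because the arrays measure bulk tissue, fewer cells of a type and less RNA per cell cannot be told apart.

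The rbp4 probe set read 45052.1, 35835.2 and 42477.2 signal units on runzel arrays 1, 2 and 3, against 60110.2, 48059 and 52946.4 on wildtype arrays 1, 2 and 3. Every runzel array lay below every wildtype array. The mean was 41122 ± 4756 in runzel and 53705 ± 6061 in siblings (SD, n = 3 each). Rbp4 is the specific plasma carrier of retinol. The log2 difference, runzel minus wildtype on log2(signal + 50), was -0.42, -0.42 and -0.32 in pairs 1, 2 and 3, with a mean of -0.39 ± 0.0589 (SD over pairs). The limma fit blocked on the replicate number gave a 95% interval of -0.53 to -0.24 and an adjusted p of 0.017, and the limma fit without the block gave -0.64 to -0.13 and an adjusted p of 0.818. The exact permutation test over the arrays gave p = 0.1, the smallest that 3 against 3 allows, and the exact sign-flip test over pairs gave p = 0.25, the smallest for 3 pairs (both two-sided). The paired call was lost without pair 1 (limma adjusted p = 0.308) and without pair 2 (limma adjusted p = 0.0606). It was also lost without limma's intensity trend (adjusted p = 0.365), with a random in place of a fixed block (adjusted p = 0.0884) and without the filter (adjusted p = 0.0576).

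The tfa probe set read 21635.4, 12267.1 and 9660.4 on runzel arrays 1, 2 and 3, against 25488.9, 19356.5 and 15470.9 on wildtype arrays 1, 2 and 3. The groups overlapped, since runzel array 1 lay above wildtype arrays 2 and 3, while within each pair the runzel array was the lower one. Tfa encodes transferrin-a, the iron carrier. Its mean was 14521 ± 6298 in runzel and 20105 ± 5051 in siblings (SD, n = 3 each). Of the 3 genes it varied the most between arrays of a group, with a coefficient of variation of 43.4% in runzel and 25.1% in siblings. Its log2 difference was -0.24, -0.66 and -0.68 in pairs 1, 2 and 3, with a mean of -0.52 ± 0.249 (SD over pairs). The difference in pair 1 was thus well under that in the other pairs. The paired limma fit gave an interval of -0.75 to -0.30 and an adjusted p of 0.035, and the unpaired limma fit gave -1.15 to 0.11 and an adjusted p of 0.977. The exact permutation p was 0.3 and the exact sign-flip p was 0.25.

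The tfa call was lost without pair 1, pair 2 or pair 3 (paired limma adjusted p = 0.0675, 0.162 and 0.0539), each a fit on fewer arrays. The log2 differences in those fits were -0.67, -0.46 and -0.45. The call was also lost without the intensity trend (adjusted p = 0.301), with the random block (adjusted p = 0.313) and under quantile normalization (adjusted p = 0.0544). Without pairing, single arrays moved the tfa difference by over 1.5 times: it was -0.85 without runzel array 1, -0.27 without runzel array 3 and -0.34 without wildtype array 1. A further 2 probe sets were annotated to tfa together with gstr, a glutathione S-transferase gene, and were assigned to neither. The brighter of them read 30728 ± 9886 in runzel and 41473 ± 5347 in siblings, with log2 differences of -0.15, -0.65 and -0.61 in pairs 1, 2 and 3 (paired limma adjusted p = 0.0401, unpaired 0.977). The other read 3376 ± 1389 in runzel and 3805 ± 1922 in siblings, a log2 difference of -0.09 that missed the threshold (paired limma adjusted p = 0.855, unpaired 0.999).

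The selenop probe set read 24812.7, 20473.2 and 25939.4 on runzel arrays 1, 2 and 3, against 29170, 27940.2 and 30056.4 on wildtype arrays 1, 2 and 3. The groups did not overlap. Selenop encodes the plasma selenium carrier. The mean was 23742 ± 2886 in runzel and 29056 ± 1063 in siblings (SD, n = 3 each), and the coefficient of variation of 3.66% among wildtype arrays was the smallest of the 3 genes in either group. The log2 difference was -0.23, -0.45 and -0.21 in pairs 1, 2 and 3, with a mean of -0.30 ± 0.13 (SD over pairs). It missed the threshold in the paired limma fit (95% interval -0.47 to -0.12, adjusted p = 0.129) and in the unpaired limma fit (-0.54 to -0.05, adjusted p = 0.967). The exact permutation p was 0.1 and the exact sign-flip p was 0.25. Leaving out runzel array 2, the lowest of the 6, brought the unpaired difference to -0.19, and quantile normalization brought it to -0.17.

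**Figure D1:**
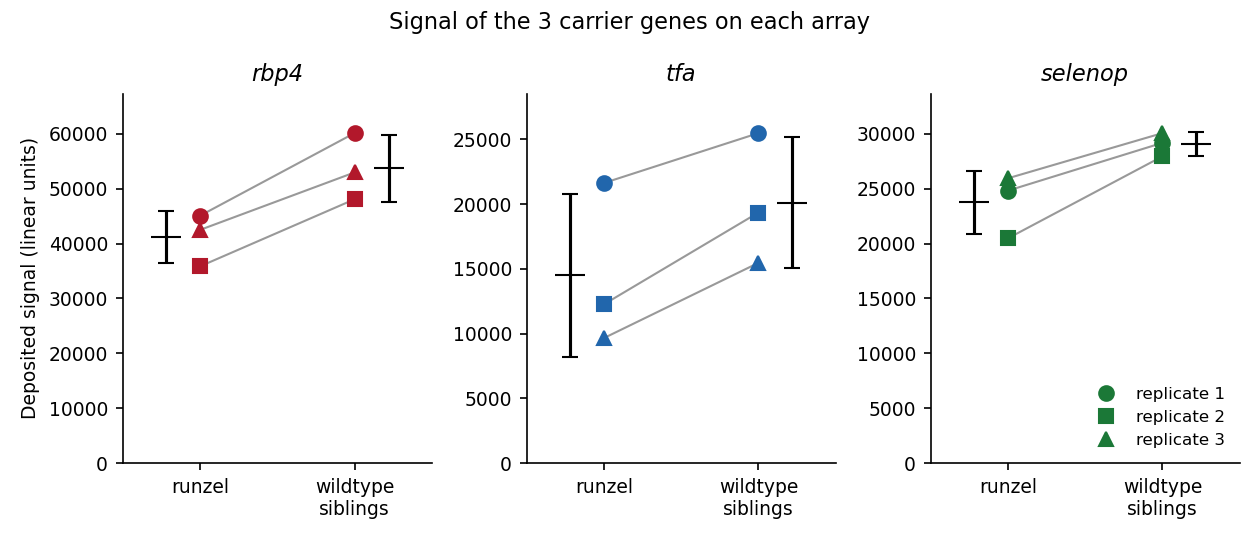
Deposited signal (linear units, from 0) of rbp4, tfa and selenop on 3 runzel and 3 wildtype arrays. Marker shapes give the replicate number, grey lines join arrays of the same number, and black bars show the mean ± SD (n = 3). All 9 lines are lower at their runzel end, and the groups overlap for tfa alone.

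Among the 9301 tested probe sets the paired limma fit called 44 as lower in runzel, 2 of the 3 carriers among them (0.473% of all tested). It called 67 as higher, or 0.72%. The unpaired limma fit called 0, with 447 probe sets (4.81%) at an unadjusted p under 0.05, of which those lower in runzel made up 1.94% of all tested. Among these were rbp4 and selenop (limma unadjusted p = 0.0074 and 0.0226) but not tfa (limma unadjusted p = 0.0933). In the paired limma fit 5.97% of tested probe sets were lower at an unadjusted p under 0.05, all 3 carriers among them (unadjusted p = 8.77e-05 for rbp4, 0.000294 for tfa and 0.0031 for selenop). Groups did not overlap, with runzel lower, at 4.6% of tested probe sets and at 2 of the 3 carriers. Lower values in all 3 pairs were found at 16.7% of tested probe sets.

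The carriers were among the brightest probe sets, and bright probe sets as a whole read slightly lower in runzel. The mean log2 level of rbp4, tfa and selenop stood at percentile 99, 97.5 and 98.3 of the probe sets on the array, which describes the brightness of the probes and not transcript abundance. Their highest reading, 60110.2, was below the highest signal on every array, which lay between 124248.8 and 173549.4. Of the 776 probe sets in the brightest 5%, 575 lay below 0 (74.1%), with a median log2 difference of -0.08, whereas 48.7% of all tested probe sets lay below 0, with a median of 0.01. In this brightest class 2.71% were called lower in the paired limma fit, 13.3% had non-overlapping groups with runzel lower, and 38% were lower in all 3 pairs. The 10th percentile of the brightest class was -0.24, so that all 3 carriers lay below it. Under quantile normalization the median of the brightest class was -0.01, and the differences were -0.30 for rbp4, -0.47 for tfa and -0.17 for selenop.

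**Figure D2:**
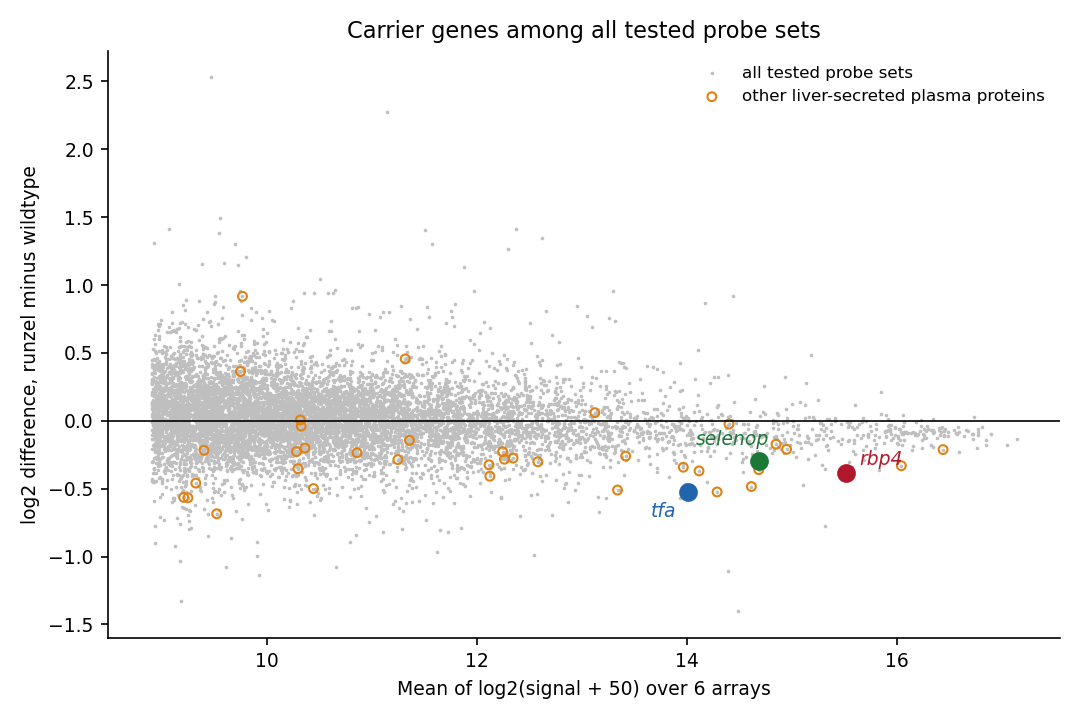
Log2 difference, runzel minus wildtype, against the mean of log2(signal + 50) over 6 arrays for 9301 tested probe sets (grey). Open circles mark 36 other plasma protein genes and filled circles the carriers, which lie at the bright end at -0.39 (rbp4), -0.52 (tfa) and -0.30 (selenop).

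**Figure D3:**
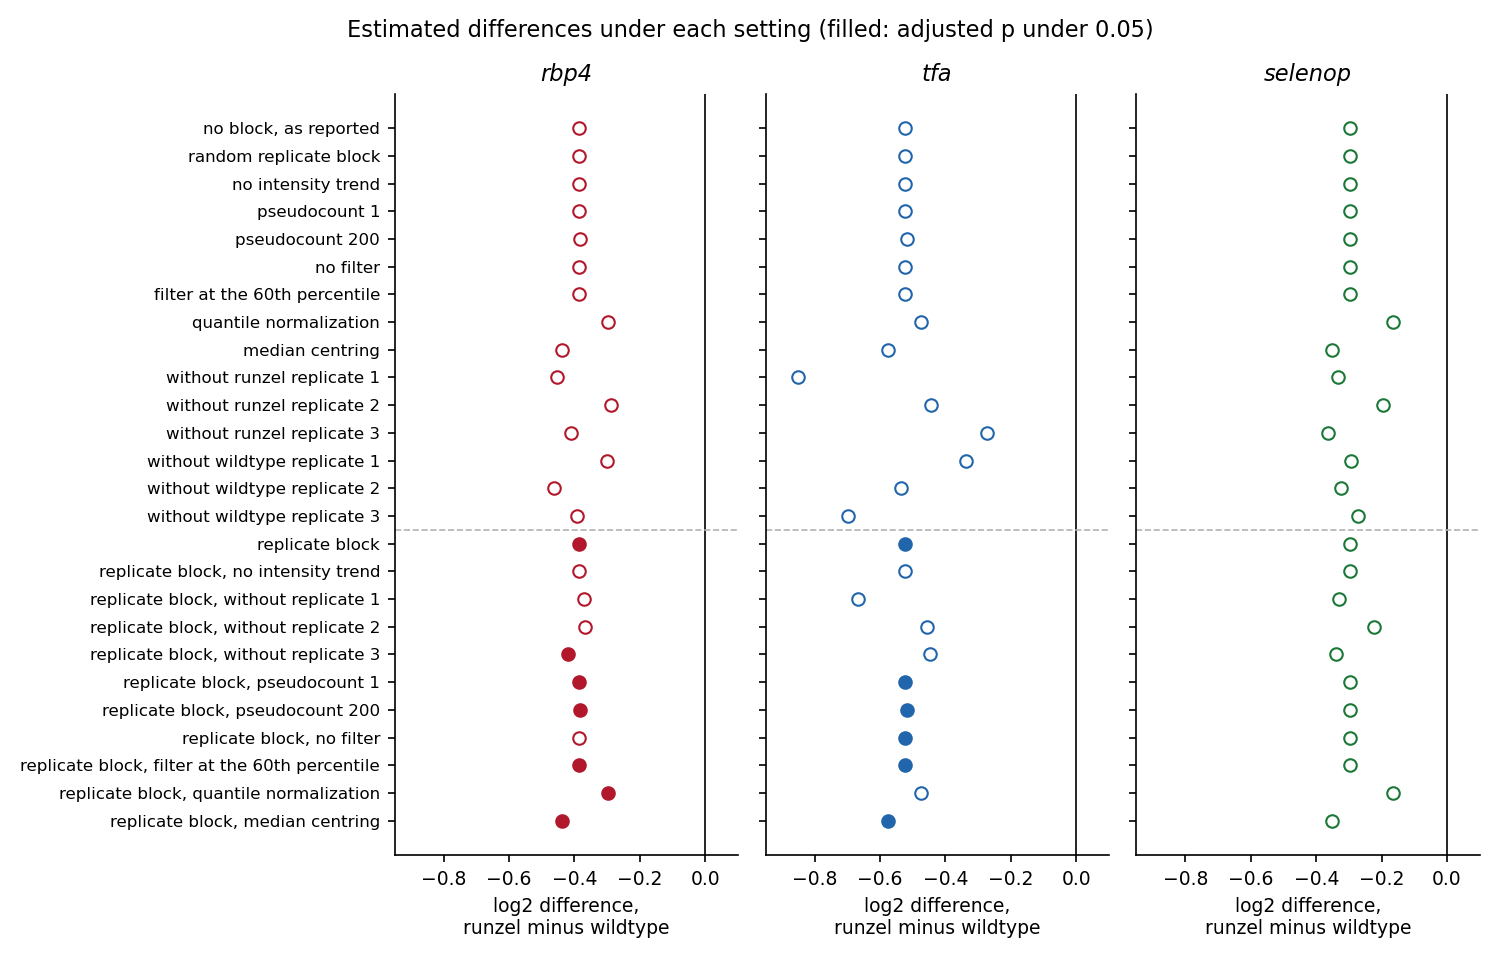
Log2 difference of each carrier, runzel minus wildtype, under each setting of the analysis, with fits without a fixed block above the dashed line and fits with the replicate block below it. Filled circles mark an adjusted p under 0.05. All values lie below 0, filled circles occur only in fits with the replicate block, and selenop has none.

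The carriers shared an order of arrays between the groups. For rbp4 the signal was highest on array 1 and lowest on array 2 on runzel and on sibling arrays alike. For tfa it was highest on array 1 and lowest on array 3 in both groups, and for selenop highest on array 3 and lowest on array 2 in both. Such a shared order was present at 3 of 3 carriers and at 30% of all tested probe sets. The order itself differed between the genes. On array 3 the tfa signal lay 0.50 below its group mean in runzel and 0.35 below it in siblings on the log2 scale, whereas that of selenop lay 0.13 above its mean in runzel and 0.05 above it in siblings.

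Whether one carrier differed more than another between the groups was tested on the log2 ratio of pairs of genes within each array, over 3 such gene pairs. The runzel minus wildtype difference was -0.23 ± 0.231 for tfa minus selenop, 0.14 ± 0.282 for rbp4 minus tfa and -0.09 ± 0.105 for rbp4 minus selenop (SD over 3 pairs of arrays). None passed (exact permutation p = 0.6, 0.7 and 0.5, each 0.7 after adjustment over the 3 comparisons), and no p under 0.1 was possible. Without runzel array 3 the first of these turned to 0.09 and the second to -0.14.

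The probe sets most like each carrier over the 6 arrays, by Pearson correlation of log2 values among 6860 probe sets with a gene symbol, are given with their log2 differences, runzel minus wildtype. For rbp4 they were surf2 (r = 0.989), gm2a (r = 0.988), tm4sf4 (r = 0.988) and magi1a (r = 0.985), with log2 differences of -0.21, -0.39, -0.50 and -0.53. For tfa they were gpalpp1 (r = 0.994), got1 (r = 0.993), orc1 (r = 0.99) and dpp7 (r = 0.988), with log2 differences of -0.19, -0.20, -0.19 and -0.15. Got1 encodes cytosolic aspartate aminotransferase, and orc1 a subunit of the origin recognition complex of DNA replication. For selenop they were tmem254 (r = 0.987), the collagen I gene col1a1a (r = 0.986), lactb (r = 0.984) and the somatostatin receptor gene sstr5 (r = 0.981), with log2 differences of -0.29, -0.17, -0.46 and -0.32. None of these 12 passed the paired limma fit (adjusted p from 0.232 to 0.716). Many were dim: surf2, tm4sf4, magi1a, gpalpp1, tmem254, lactb and sstr5 read at most 919.2 on any array, where the filter lay at about 429. The highest readings of the others ran from 1145.5 (orc1) to 61373.6 (col1a1a). The 6 arrays share their groups and their scaling, and each r was picked as among the highest of all those ranked.

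Genes listed as other liver-secreted plasma proteins were mostly lower in runzel as well. Some of them are also on the intestinal and yolk syncytial marker lists below, and which tissue made their transcripts here was not tested. The list held 75 genes, of which 47 were measured and 36 tested. Of these 31 lay below 0 and 5 above, with a median log2 difference of -0.28, and 4 fell and 0 rose in the paired limma fit (11.1% lower, against 0.473% of all tested probe sets). All 4 belonged to the brightest 5% of probe sets on the array, the class of which 2.71% were called lower, and that class held 13 of the 36 genes. Of the other 23 genes 19 lay below 0, with a median log2 difference of -0.28. Of the 13 bright genes 12 lay below 0, against 74.1% of the brightest class and 48.7% of all tested probe sets. At an unadjusted p under 0.05, 19 of the 36 were lower and 2 higher in that fit, against 5.97% of all tested probe sets lower. The unpaired limma fit called 0, with 9 lower and 1 higher at an unadjusted p under 0.05, against 1.94% lower of all. The 4 that fell were the apolipoprotein genes apoc2 (log2 -0.48 ± 0.0148, adjusted p = 0.0106), apoa1a (-0.33 ± 0.0206, adjusted p = 0.0197) and apoa4b.2 (-0.52 ± 0.275, adjusted p = 0.0369), and fetub, which encodes the protease inhibitor fetuin-B (-0.51 ± 0.183, adjusted p = 0.0374). Their log2 differences ran from -0.52 to -0.33, and those of rbp4 and tfa lay within this range. The fibrinogen chain genes fga, fgb and fgg, which make the clot protein of plasma, had log2 differences of -0.28, -0.30 and -0.26 and did not pass (paired limma adjusted p = 0.367, 0.26 and 0.279). These values lie close to that of selenop.

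Genes that act with rbp4 on retinoids did not share one direction. Of 48 listed genes 27 were measured and 21 tested, 10 of them below 0 and 11 above, with a median log2 difference of 0.01. In the paired limma fit 1 fell (4.76%) and 0 rose, with 3 lower and 1 higher at an unadjusted p under 0.05, where 5.97% of all tested probe sets were lower. The one that fell was rbp2a, which encodes a cellular retinol-binding protein known from the intestine of mammals. It read 2455 ± 1326 in runzel and 3694 ± 1915 in siblings, a log2 difference of -0.59 ± 0.0265 that was lower in 3 of 3 pairs (paired limma adjusted p = 0.0385, unpaired 0.977). The Rbp4 receptor gene stra6 read 878 ± 212.7 in runzel and 1227 ± 340.5 in siblings, a log2 difference of -0.45 ± 0.0842, and missed the threshold (paired limma adjusted p = 0.221). The rbp4 relative rbp4l had a log2 difference of 0.36 ± 0.677 and missed it too (paired limma adjusted p = 0.557). Aldh1a2, which makes retinoic acid, read 1924 ± 236.7 in runzel and 1901 ± 127.4 in siblings (log2 difference 0.01, paired limma adjusted p = 0.984).

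Of 41 listed genes of iron transport, storage and regulation 16 were measured and 13 tested, 9 of them below 0 and 4 above, with a median log2 difference of -0.12. The paired limma fit called 0 of them, with 4 of 13 lower and 0 higher at an unadjusted p under 0.05 (background 5.97% lower). Slc40a1, the iron exporter ferroportin, read 2336 ± 471.5 in runzel and 2859 ± 147.1 in siblings (log2 difference -0.30 ± 0.358, paired limma adjusted p = 0.427). The iron importer gene slc11a2 had a log2 difference of 0.03 ± 0.179 (paired limma adjusted p = 0.952), and steap4, of a metalloreductase family, one of 0.00 ± 0.415 (paired limma adjusted p = 0.999). The ferritin heavy chain gene fth1a, which encodes the iron store of the cell, read 56738 ± 3921 in runzel and 63948 ± 8333 in siblings (log2 difference -0.17, paired limma adjusted p = 0.363). The lowest value of the list, -0.50, belonged to hp, the haemoglobin-binding haptoglobin (paired limma adjusted p = 0.237). Of the 4 genes lower at an unadjusted p under 0.05, hp and cp are also on the plasma list and were counted there. The others were fthl30 and fth1a.

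Of 47 listed selenoproteins and selenium-handling genes 27 were measured and 23 tested, 15 of them below 0 and 8 above, with a median log2 difference of -0.09. The paired limma fit called 0 of them, with 5 of 23 lower and 2 higher at an unadjusted p under 0.05 (background 5.97% lower). The second selenoprotein P gene, selenop2, read 691 ± 128 in runzel and 880 ± 260.3 in siblings, a log2 difference of -0.31 ± 0.233 that lay near the -0.30 of selenop and missed the threshold (paired limma adjusted p = 0.498). Selenoh and selenom, which encode small selenoproteins, had log2 differences of -0.23 ± 0.0486 and -0.44 ± 0.36 (paired limma adjusted p = 0.341 and 0.245). Lrp8, a receptor for selenoprotein P in mammals, was too dim to be tested. Selenon, whose human counterpart is mutated in an inherited muscle disease, was on the other side of 0, at 0.31 ± 0.179 (paired limma adjusted p = 0.414). For the retinoid, iron and selenium lists the unpaired limma fit called 0 genes, with 0, 1 and 0 lower and none higher at an unadjusted p under 0.05.

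**Figure D4:**
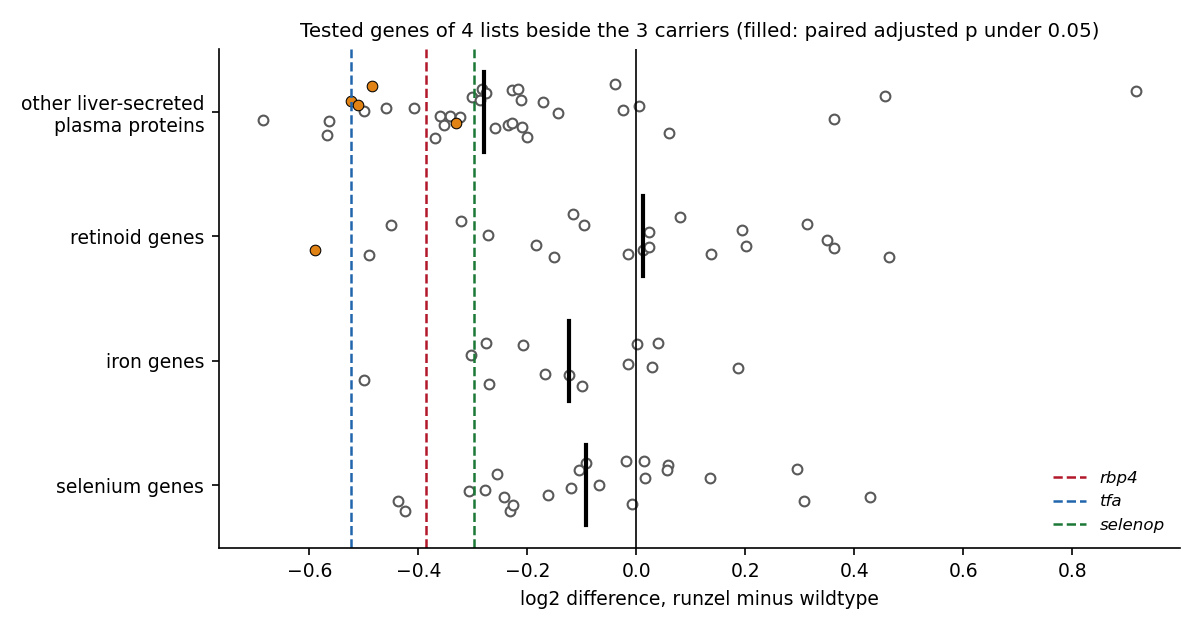
Log2 difference, runzel minus wildtype, of the tested genes in 4 lists (circles, filled where the paired adjusted p is under 0.05), with list medians as black bars and the carriers as dashed lines. The plasma protein list has its median at -0.28, near selenop, and the retinoid, iron and selenium lists at 0.01, -0.12 and -0.09.

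Markers of muscle and of other tissues were read on the same arrays, and which tissue made their transcripts was not tested. All 24 measured skeletal muscle genes were bright enough to be tested, and their summed signal was 1480720 to 1685290 in runzel and 1544360 to 1840880 in siblings. Of the muscle genes 2 fell and 2 rose in the paired limma fit, which called 0.473% of all tested probe sets and 2.71% of the brightest class lower, and 0.72% of all higher. At an unadjusted p under 0.05 it had 4 of the 24 lower and 6 higher, where 5.97% of all tested probe sets were lower. The share of all tested probe sets higher at that p in this fit was not computed. Counts of higher genes at that p, in this and the other lists, thus have no background. No share at that p was computed for the brightest class. The 2 called lower were acta1a, encoding skeletal actin (log2 difference -0.78, paired limma adjusted p = 0.00313), and pvalb3 (-0.69, adjusted p = 0.017). The 2 called higher were the titin gene ttn.2 (0.92, adjusted p = 0.00763) and desma (0.87, adjusted p = 0.0106). Of the 17 measured liver markers 8 were too dim to be tested. Among them was fabp10a, the liver fatty acid-binding protein that marks hepatocytes in zebrafish, at 66.2 ± 27.74 in runzel and 163 ± 163.1 in siblings. Its sibling arrays 1, 2 and 3 read 348.1, 101.1 and 40.2. The dim markers lay on both sides of 0. Cyp2ad2, cyp3a65 and tat lay above (0.58, 0.39 and 0.08). Fabp10a, prox1a, hpda, agxta and uox lay below (-0.62, -0.62, -0.42, -0.39 and -0.38). The 9 tested liver markers had a median log2 difference of -0.28, with 7 below 0, against 48.7% of all tested probe sets. The paired limma fit called 0 of these 9. At an unadjusted p under 0.05, 5 of the 9 were lower in that fit, against 5.97% of all tested probe sets. Summed liver signal was 131838 to 140563 in runzel and 132464 to 164557 in siblings. Most of it came from bhmt, which read 84075 ± 5374 in runzel and 90808 ± 13590 in siblings. The next largest part was gatm, at 27755.5 ± 3156 in runzel and 26499.1 ± 1547 in siblings. Log2 differences were -0.10 for bhmt and 0.06 for gatm, so the sum says little of the dimmer liver markers. The liver list shares cp and ambp with the plasma list, and they held 6.11% to 8.83% of its sum.

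Intestinal markers, of a tissue that the dissection was to remove, summed to 34039 to 42637 in runzel and 48582 to 56980 in siblings, with no overlap. Of 14 measured 9 were tested, 8 of them below 0 with a median of -0.66, and 1 fell in the paired limma fit, lgals2b (log2 -0.70, adjusted p = 0.0178). At an unadjusted p under 0.05, 8 of the 9 were lower in that fit and 5 in the unpaired limma fit, against 5.97% and 1.94% of all tested probe sets. The gene apoa4b.1, which is on the plasma list too, held 35.9% to 43.8% of the sum. Without apoa4b.1 the sums were 20423 to 25867 in runzel and 29295 to 36546 in siblings. The next largest part was fabp1b.1, at 8730 ± 734.4 in runzel and 11228 ± 2505 in siblings. Whether intestine made these transcripts was not tested. The enterocyte gene fabp2 had a log2 difference of -0.61 (paired limma adjusted p = 0.0724). Endothelial markers summed to 9984 to 13442 in runzel and 15937 to 17504 in siblings, also with no overlap, with 2 of 7 tested genes lower in the paired limma fit and 3 at an unadjusted p under 0.05 (2 in the unpaired fit). The largest part of the endothelial sum came from aqp1a.1, which read 6089 ± 1232 in runzel and 9175 ± 1381 in siblings. Of the 7 tested endothelial genes 6 lay below 0 and 1 above, with a median log2 difference of -0.27. Epidermal markers summed to 431878 to 514292 in runzel and 508522 to 574960 in siblings, with 6 of 24 tested genes lower in the paired limma fit, 11 at an unadjusted p under 0.05, and 5 at that p in the unpaired fit. For each of these lists the background is 0.473% of all tested probe sets lower in the paired fit, and 2.71% of the brightest class. Markers of the yolk syncytial layer summed to 141095 to 166356 in runzel and 160818 to 181659 in siblings. Blood markers summed to 120109 to 150492 in runzel and 132662 to 177008 in siblings, and pancreas markers to 6047 to 6848 in runzel and 6132 to 10299 in siblings. The ranges of the epidermal, yolk syncytial, blood and pancreas sums overlapped between the groups. Within pairs, the epidermal, yolk syncytial and blood sums were lower in runzel in all 3, with mean log2 differences of -0.21, -0.19 and -0.18, and the pancreas sum was lower in 2 of 3. Most of the blood sum came from the globin gene hbae3, which read 90917 ± 10480 in runzel and 107095 ± 16960 in siblings. Of the 12 tested blood genes 5 lay below 0 and 7 above, with a median log2 difference of 0.08. The list mixes red-cell and white-cell genes. Those below 0 were hbae3, hbbe2, epb41b, slc4a1a and cahz, and the globin gene hbbe2 was called (-0.46, paired limma adjusted p = 0.0278). Above 0 lay the red-cell genes hbbe3, alas2 and nt5c2l1 (0.44, 0.03 and 0.17). The white-cell genes spi1b, mpx, lyz and lcp1 also lay above 0 (0.37, 0.46, 0.31 and 0.14). The yolk syncytial sum largely repeats the plasma list, since apobb.1, apoba, apoa2 and apoc1 are on both and held 97.1% to 98.5% of it. Without these 4 genes it was 3103 to 4023 in runzel and 2696 to 4064 in siblings, and the pairs' log2 differences were -0.18, 0.21 and -0.01. In the yolk syncytial and pancreas lists the paired limma fit called 0 of 8 and 0 of 6 tested genes, with 2 and 0 lower at an unadjusted p under 0.05. In the blood list 1 of 12 was called lower, with 3 lower and 3 higher at that unadjusted p. Of all tested probe sets 0.473% were called lower and 5.97% were lower at that unadjusted p. The part of these tissues in the signal of the carriers was not tested.

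**Figure D5:**
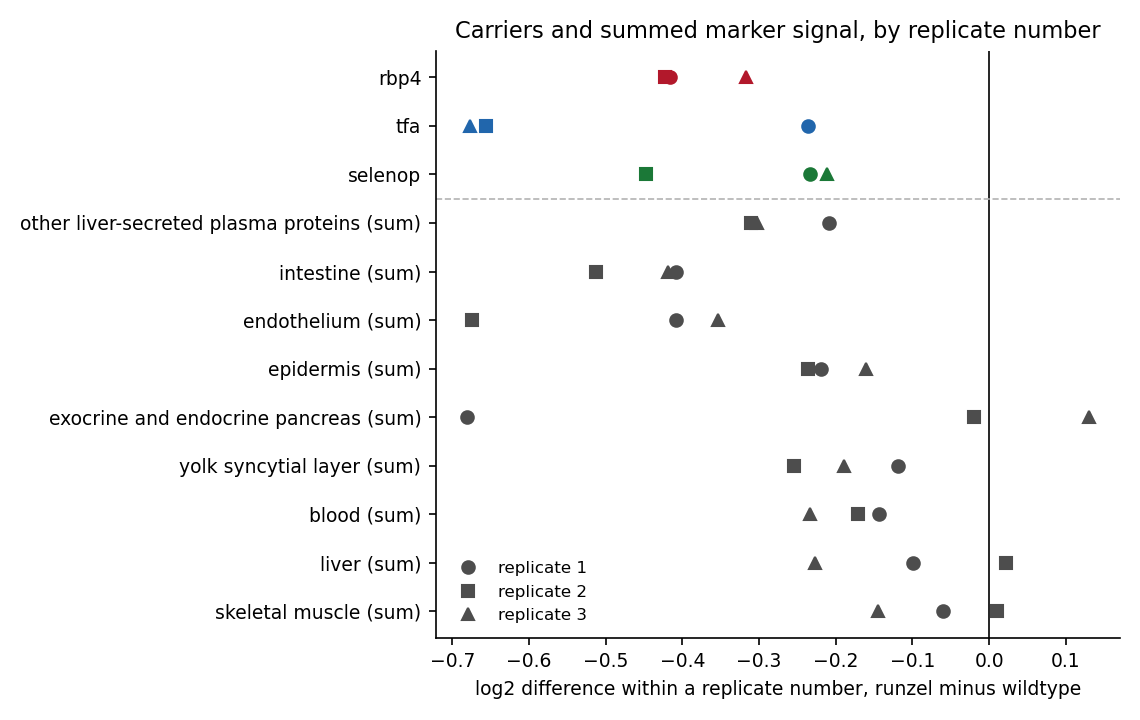
Log2 difference, runzel minus wildtype, within each replicate number (marker shape) for the carriers and for the summed signal of the plasma protein list and of each tissue's markers. The plasma, intestinal, endothelial, epidermal, yolk syncytial and blood sums lie below 0 in all 3 pairs. The intestinal and endothelial means are -0.45 and -0.48. The liver, skeletal muscle and pancreas sums lie on both sides of 0, and most of the liver sum is bhmt.

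The ratio of 3′ to 5′ signal on the actin (acta1) control probe sets serves as a check of RNA integrity. This ratio was 2.49 ± 0.398 in runzel and 1.51 ± 0.195 in siblings (SD, n = 3 each, exact permutation p = 0.1, the smallest possible). Every runzel array (2.03 to 2.78) lay above every sibling array (1.37 to 1.74). The skeletal actin gene acta1a was itself called lower in runzel (log2 difference -0.78, paired limma adjusted p = 0.00313). Whether that bears on the ratio was not tested. The part of the ratio in the lower signal of the carriers was not tested either.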

How the data were processed

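The authors deposited 1 linear signal intensity per probe set and array. Per the labels, the scanner was a GeneChip Scanner 3000 run by GeneChip Operating Software 1.2. The sources used here do not say how probe signals were summarised or scaled. A 2% trimmed mean was 1499.00 to 1499.18 on the 6 arrays, so the scaling was kept. No array duplicated another.

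Values were analysed as log2(signal + 50), which understates changes of dim probe sets. Of 15617 probe sets, 115 controls were left out, as were those with a mean under the 40th percentile (a signal of about 429). Gene names came from the platform annotation, updated through RefSeq; 10795 probe sets had 1 symbol. Groups were compared with limma 3.58.1 (R 4.3.3; empirical Bayes with an intensity trend, Benjamini-Hochberg over 9301 probe sets, threshold 0.05, two-sided). The unpaired fit was set as primary. Same-numbered arrays deviated together (0.551, 0.389 and 0.526), so the fit with the replicate block stands beside it as the paired fit. The limma fits were tried on simulated data with known changes added, where only the mean size of the estimated changes was checked. The unpaired limma p-values rest on the spread between arrays within a group, the paired ones on the spread of the within-pair differences. In both fits the empirical Bayes step also draws on the other tested probe sets. Either way only these arrays are described, and with so few of them the estimates are imprecise.

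The carriers and gene lists were chosen with earlier results of these data known. List genes are given by their brightest probe set. Named genes are the carriers, the 4 most correlated genes of each, and from each pathway list the first 3 tested and those called; others named were chosen after their values were seen. The fits with the replicate block and another pseudocount, filter or scaling were added after seeing the data.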

Additional observations from a re-analysis of the deposited data

How the results depend on the processing

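The log2 differences of rbp4, tfa and selenop stayed below 0 under all 25 alternatives each, from -0.46 to -0.29, -0.85 to -0.27 and -0.37 to -0.17. With the replicate block rbp4 (-0.39) and tfa (-0.52) passed, and of the 11 fits with that block 7 passed for rbp4, 6 for tfa and 0 for selenop; of the 14 other alternatives 0 passed for any of them. With the block, rbp4 passed at pseudocounts 1 and 200 (-0.39 and -0.38), with the filter at the 60th percentile (-0.39), under quantile normalization (-0.30) and median centring (-0.44), and over left-out pairs it ran from -0.42 to -0.37. Tfa passed with the block at pseudocounts 1 and 200 (both -0.52), with no filter and the filter at the 60th percentile (-0.52) and under median centring (-0.58), and over left-out pairs it ran from -0.67 to -0.45. Leaving out single arrays without the block gave -0.46 to -0.29 for rbp4, -0.85 to -0.27 for tfa and -0.37 to -0.19 for selenop. The block changed no call for the ratios between carriers.

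The number of probe sets called was 0 without the block and 0 to 1 with an array left out. It was 111 with the replicate block, 19 with the random block (consensus correlation 0.423), and 3 with the replicate block but no intensity trend. With the block and a pair left out it was 34, 29 and 149 without pairs 1, 2 and 3. With the block it was 106 and 113 at pseudocounts 1 and 200, 81 with no filter, 102 with the filter at the 60th percentile, 103 under quantile normalization and 93 under median centring. With an array left out the difference in the log2 ratio of rbp4 to tfa ran from -0.14 to 0.40 and that of tfa to selenop from -0.52 to 0.093, the turned signs coming without runzel array 3. That of rbp4 to selenop, -0.088 with all arrays, ran from -0.14 without sibling array 2 to -0.0067 without sibling array 1. The cause of these shifts was not tested. The number of arrays limits these tests: no exact test over 3 against 3 arrays can go below 0.1, and the carriers' calls rest on a pairing read from the data.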

Other observations

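Within the list of plasma proteins 5 tested genes lay above 0, opposite to the carriers, and none of the 5 passed. The largest was the complement gene c4b, at 1188 ± 374.2 in runzel and 590 ± 104.5 in siblings (SD, n = 3 each), a log2 difference of 0.92 ± 0.532 (paired limma adjusted p = 0.0636, unpaired 0.818). Igfbp1a, which encodes a plasma carrier of insulin-like growth factors, read 3095 ± 1263 in runzel and 2212 ± 797.4 in siblings, a log2 difference of 0.46 ± 0.167 (paired limma adjusted p = 0.147). The other three were rbp4l (0.36), the apolipoprotein B gene apoba (0.06) and the complement gene c8b (0.01).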
